A study of Mus musculus with 9 samples.

Results

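The mitochondrial ribosomal protein genes were taken as all rows of the deposited count table whose symbol begins with Mrpl or Mrps followed by a digit. This gave 78 genes of 17769, of which 51 encode large-subunit and 26 small-subunit proteins, together with Mrps36. All 78 passed the filter on low counts that left 13602 genes to test, and each had at least 108 counts in every library.

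The mitochondrial ribosome is a separate machine from the cytosolic ribosome. It reads the few messenger RNAs made from mitochondrial DNA, and its products are all membrane-bound subunits of the respiratory chain and the ATP synthase. Its ribosomal RNAs come from the mitochondrial genome, whereas every one of its proteins is encoded in the nucleus, made in the cytosol and imported. Red cell precursors carry mitochondria for heme synthesis and lose them when they mature, and the mature red cell has none.

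RNA was measured in mouse bone marrow cells sorted as MEP (megakaryocyte-erythroid progenitors, the common source of platelets and red cells), with 3 libraries in each of 3 groups on the strain background C57BL/6N. The group VF carried SclCre and V617F, the group E12 carried SclCre and Exon12, both mutations of the kinase gene Jak2 that the study concerns, and WT is the control. SclCre is a Cre recombinase named for Scl, another name of the blood transcription factor Tal1. Per the labels all mice had 5 daily injections of tamoxifen, and cells were taken 12 weeks later in VF and WT and 6 weeks later in E12. The labels say neither whether WT carries SclCre nor whether libraries are separate mice, so p-values measure the spread between these libraries, which may be technical. E12 differs from VF and WT in genotype and in time, and the WT libraries carry facility numbers from another run of numbers than the mutant libraries. Genotype cannot be told apart from either.

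Levels are given as CPM, a normalised read count scaled to the library's size with edgeR's TMM factors, and groups are given as mean ± SD with n = 3. Total counts ran from 19254889 to 39735307 per library, and WT 50 and E12 5 stood apart from the other libraries of their groups. Each WT library had more reads than any mutant library, at least 33836759, and also more genes with a count of 0. The share of genes at 0 was 27.2% to 30.1% for WT, 10.7% to 12.4% for VF and 12.4% to 18.7% for E12. Genes of 2000 bases and over held 25.5% to 51.7% of WT counts and 62.5% to 66.7% of mutant counts. TMM factors were 0.456 to 0.869 for WT and 1.09 to 1.28 for the mutants. How far the genes at 0 enter the comparisons with WT was not tested. Of the 6 MEP markers listed, which include Gata1, Klf1 and Kit, all were detected in each group, with a summed level of 1074 to 1328 CPM in VF, 1939 to 2318 CPM in E12 and 3948 to 4821 CPM in WT. The sum follows Klf1, at 113, 716 and 2446 CPM on average in VF, E12 and WT, with Gata1 and Gfi1b in the same order. Kit, at 545, 315 and 134 CPM, had the opposite order, and Tal1 (103, 159 and 51.8 CPM) and Zfpm1 (22, 31.2 and 7.59 CPM) were lowest in WT. The 10 erythroid markers summed to 1087 to 1607 CPM in VF, 7917 to 21286 CPM in E12, with E12 5 the highest, and 21172 to 36557 CPM in WT. The 10 megakaryocyte markers summed to 2105 to 2711 CPM in VF, 375 to 476 CPM in E12 and 57.1 to 181 CPM in WT, where Itgb3 was at 0. The 8 markers of stem and multipotent progenitors summed to 1298 to 1383 CPM in VF, 286 to 528 CPM in E12 and 21.7 to 36.6 CPM in WT, where Mecom and Procr were at 0. The 8 neutrophil and monocyte markers summed to 6810 to 12823 CPM, 1314 to 2231 CPM and 145 to 768 CPM in the same order. For the 7 lymphoid markers the sums were 515 to 622, 201 to 335 and 207 to 1582 CPM, and for the 5 mast cell and basophil markers 292 to 319, 30.1 to 172 and 23.3 to 62.7 CPM. The sorted cells thus differed in their lineage transcripts between the groups, and the part of that difference in the results below was not tested.

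The upstream sequence of 4 members is shown because the results turn on them. Mrps30 is the single member that ran against the rest, Mrpl37 is the large-subunit member with the smallest p in VF against WT, and Mrps5 and Mrpl9 are the members that differed between E12 and VF in the fit of all libraries. Each line gives the 150 bases before an annotated start, 5′ to 3′ on the gene's strand, from RefSeq on GRCm38.p6. For Mrpl9 that start lies inside the gene's span of 94443154 to 94448708, so the bases printed for Mrpl9 lie within that span. The Mrps30 bases lie at chr13:118387253-118387402 on the minus strand, those of Mrpl37 at chr4:107066867-107067016 on the minus strand, those of Mrps5 at chr2:127587276-127587425 on the plus strand and those of Mrpl9 at chr3:94443186-94443335 on the plus strand. Capitals mark matches to the motifs named after the lines.
Mrps30: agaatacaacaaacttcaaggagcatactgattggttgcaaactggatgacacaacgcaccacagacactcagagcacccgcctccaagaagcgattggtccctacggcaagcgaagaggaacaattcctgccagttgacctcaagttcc
Mrpl37: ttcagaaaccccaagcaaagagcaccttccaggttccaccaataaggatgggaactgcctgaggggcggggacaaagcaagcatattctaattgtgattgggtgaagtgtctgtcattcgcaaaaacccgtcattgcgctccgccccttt
Mrps5: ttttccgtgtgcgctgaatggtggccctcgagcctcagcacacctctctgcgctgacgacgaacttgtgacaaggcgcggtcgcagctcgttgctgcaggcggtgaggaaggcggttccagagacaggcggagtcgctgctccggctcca
Mrpl9: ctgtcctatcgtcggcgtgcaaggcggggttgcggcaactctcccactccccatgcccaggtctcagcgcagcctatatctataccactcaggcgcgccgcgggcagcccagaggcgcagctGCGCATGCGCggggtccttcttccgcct

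The motifs searched, on both strands, were CCGGAAG for ETS factors, GCATGCGC for NRF1 and AAGATGGC for YY1, factors known to act on many nuclear genes for mitochondrial proteins. The search covered windows of 300 bases, 250 before and 50 after the start, and 69 of the 78 members had at least 1 window, 75 windows in all. CCGGAAG was found in 26 of the 75 member windows (34.7%), against 8.86% of all 32851 windows in the RefSeq table. GCATGCGC was found in 8 member windows (10.7%), against 2.71% of all, and AAGATGGC in 12 (16%), against 2.75%. Mrpl9 holds 2 overlapping matches to GCATGCGC in opposite orientation, which appear above as 1 run of capitals. Mrpl37 holds 1 match to AAGATGGC, outside the bases printed. The windows of Mrps30 and Mrps5 hold none of these letters.

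As a group the mitochondrial ribosomal protein transcripts were most abundant in WT, lower in E12 and lowest in VF. Their 78 genes took 0.691% to 0.75% of the counts in the VF libraries, 0.816% to 0.94% in E12 and 1.45% to 2.93% in WT, so that no library of one group entered the range of another. The median member was at 73.3, 71.7 and 66.8 CPM in VF 1, VF 2 and VF 3, at 100.5, 84.2 and 89.2 CPM in E12 1, E12 2 and E12 5, and at 637, 227 and 185 CPM in WT 50, WT 51 and WT 52. Group means followed the order WT, E12, VF for 64 members and the order WT, VF, E12 for 13. In bulk RNA a smaller share of cells with these transcripts and less of the RNA per cell cannot be told apart.

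**Figure D1:**
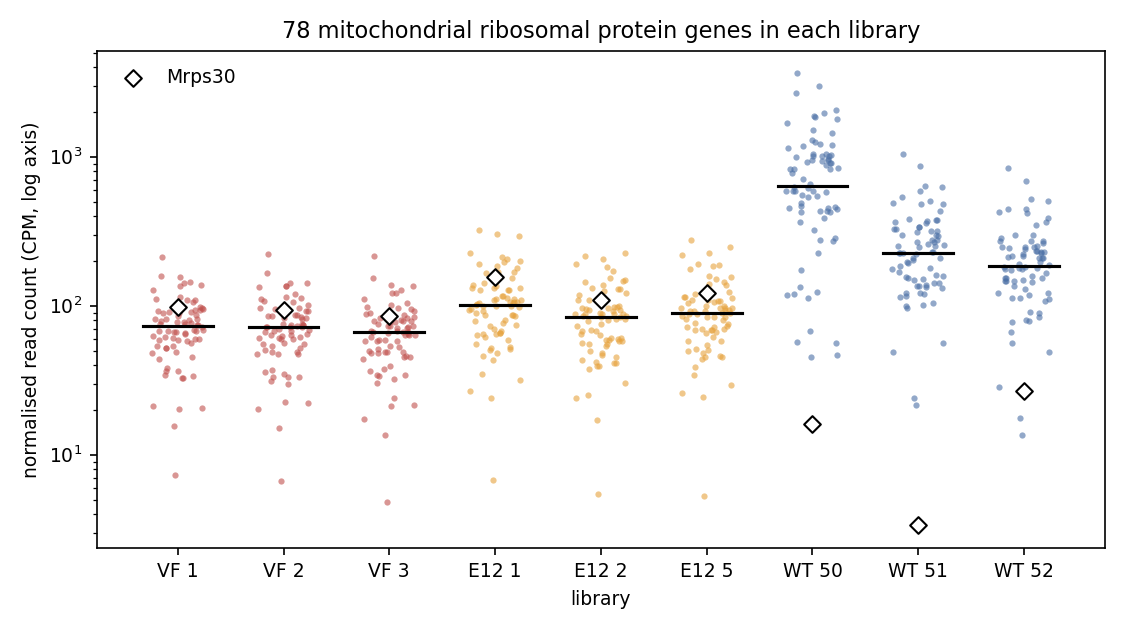
Normalised read count (CPM, log axis) of the 78 members in each of the 9 libraries; each point is 1 gene, the bar is the median, and the diamond is Mrps30. The medians lie at 66.8 to 73.3 CPM in VF, 84.2 to 100.5 CPM in E12 and 185 to 637 CPM in WT, while the diamond lies lower in WT than in VF or E12.

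The WT libraries were far less alike than the mutant ones. The coefficient of variation of a member within its group had a median of 81.8% in WT, 12.5% in E12 and 6.7% in VF, against 61.6%, 16.3% and 9.75% over the other tested genes. WT 50 had the highest level of all 9 libraries for 71 of the 78 members. WT 51 and WT 52 nevertheless lay above all 6 mutant libraries for 74 members, so in these members the order is seen without WT 50. The share of all tested genes was not computed for either count. With all 3 WT libraries, 23% of all tested genes lay below WT in every VF library and 20.3% in every E12 library. For VF it was 53.8% of the other genes under 800 bases and 55.1% from 800 to under 1200 bases. Against the mean of the other WT libraries, members in WT 50 were higher by a median of 1.88 on the log2 scale, where all other tested genes had a median of 0. Among genes of under 800 bases the medians were 2.05 for members and 2 for other genes, and among those of 2000 bases and over 1.68 and -0.32.

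VF against WT asks how the mitochondrial ribosomal genes differ between V617F and control cells taken at the same time after tamoxifen. In edgeR's quasi-likelihood fit, with p-values adjusted by Benjamini-Hochberg, 74 of the 78 members were lower in VF, 1 was higher, and 3 did not pass an adjusted p of 0.05. Over all tested genes 20.9% were called lower and 27.7% higher. The median log2 fold change of the members was -2.6, against 0.36 over all tested genes. All 3 VF libraries lay below all 3 WT libraries for 74 members, against 23% of all tested genes. Without WT 50 the members' median was -1.84 and 76 were called lower, against 3788 of the 13978 genes tested there.

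E12 against WT asks the same of the Exon12 cells, and it shares its control libraries with the comparison above. Of the 78 members 69 were lower in E12, 1 was higher and 8 did not pass, by the same test. Over all tested genes 18.1% were called lower and 23.9% higher. The median log2 fold change of the members was -2.13, against 0.36 over all genes, and 71 members lay below WT in all E12 libraries, against 20.3% of all genes. Without WT 50 the median was -1.39 with 74 lower calls, against 3362 of the 13978 genes tested there. In the fit of E12 and WT alone 54 were lower, against 1339 of 12785 genes. Without E12 2 the number of lower calls was 45, with a median of -2.02, against 1323 of 13957 genes.

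Scaling shifts all genes together, so the members are also given relative to the median of all tested genes. With DESeq2's size factors in edgeR that median moved from 0.36 to 0.21 in VF against WT and from 0.36 to 0.17 in E12 against WT. The members' median less that of all genes was then -3.09 and -2.61, against -2.96 and -2.49 with TMM factors.

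Most mitochondrial ribosomal proteins are small, and the WT libraries held more reads of short genes. Genes under 800 bases took 6.17% to 16.1% of the counts in WT, 4.28% to 4.86% in VF and 3.7% to 5.49% in E12. Lengths here are those the authors deposited, with a median of 1053 bases over the members and a range from 407 to 6712. They lie within 10% of the principal transcript in GENCODE for 44 members, are shorter for 26 and longer for 8. Length in the count table and genotype therefore move together in these libraries, and members were set beside other genes of the same length class.

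In the class under 800 bases, 22 of 22 members were called lower in VF than in WT, against 50.1% of all tested genes of that class. From 800 to under 1200 bases it was 24 of 24, against 54.1%. From 1200 to under 2000 bases 17 of 20 members were lower, against 39.4%. At 2000 bases and over 11 of 12 members were lower, against 9.87%. The members' medians in these classes were -2.65, -2.83, -1.55 and -2.52 on the log2 scale, and those of the other genes -1.75, -1.63, -0.64 and 0.8. The members' median thus lay below that of the other genes in every class, by the widest margin at 2000 bases and over. That class has no upper limit. It holds 9289 other genes, and its members run from 2079 to 6712 bases. Within it the other genes were not matched to the members in length, so the size of that margin may include length. Of the 12 longest members 11 have a coding sequence under 1000 bases, so most of their length is outside the coding part.

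In E12 against WT the members called lower were 20 of 22, 24 of 24, 14 of 20 and 11 of 12 in the same classes, against 49.2%, 57.5%, 36.4% and 6.35% of all tested genes. Their medians were -2.42, -2.3, -1.21 and -2.01, against -1.82, -1.7, -0.69 and 0.77 for the other genes. Less the median of the other genes of its class, the median member was at -1.22 in VF against WT and at -0.69 in E12 against WT. These values were -0.53 and -0.13 on the deposited log2 levels, and -2.17 and -1.63 with no filter on low counts. A total of 3 members lay above the median of their class in the first comparison, Mrpl10, Mrps6 and Mrps30, and 12 in the second. With an offset for gene length in the fit, 76 members were lower in VF and 65 in E12, at medians of -1.82 and -1.12 against -0.78 and -0.58 over all genes. Of the 13602 tested genes 5790 were then lower in VF and 4528 in E12. That offset also moved the share of higher calls among all calls from 57% to 23.2% in VF against WT and from 56.9% to 22.3% in E12 against WT.

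**Figure D2:**
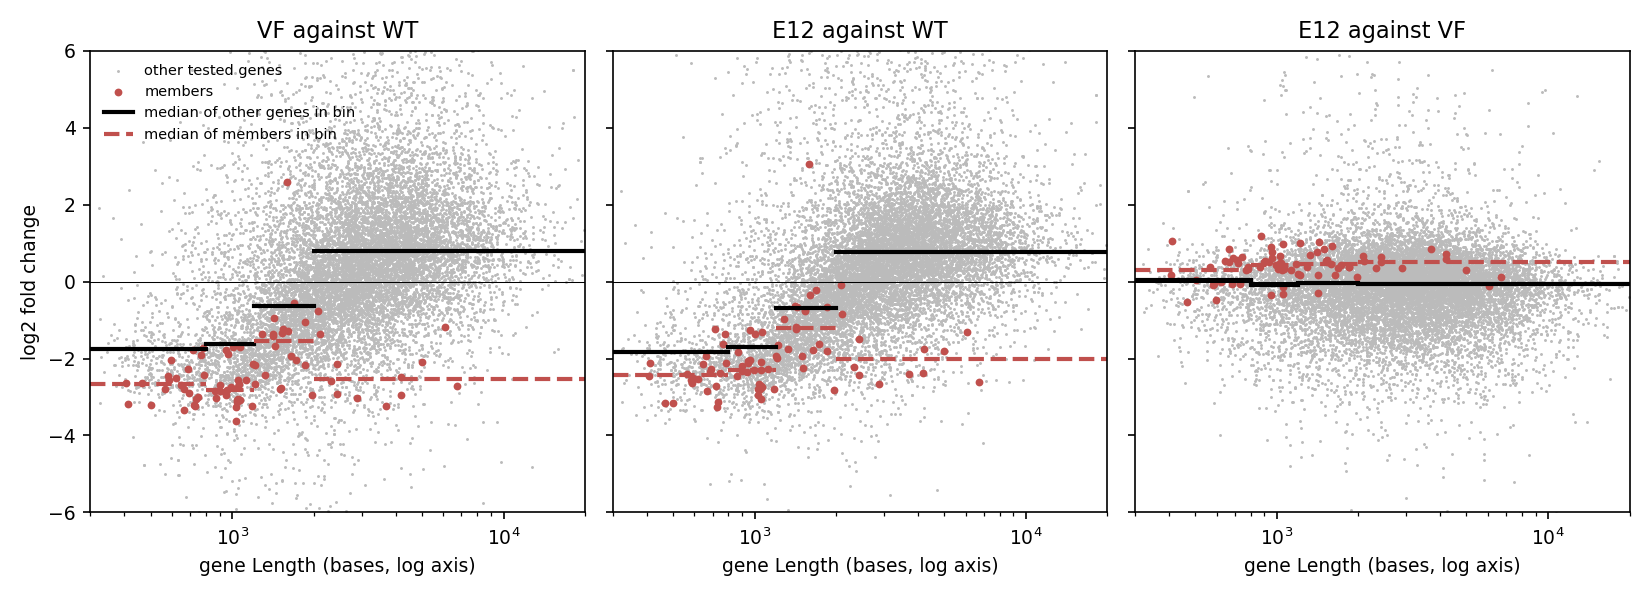
Log2 fold change against gene length (bases, log axis) in the 3 comparisons; grey points are other tested genes, red points the 78 members, and lines the medians of the other genes (solid black) and of the members (dashed red) in 4 length classes. The members' medians lie below those of the other genes of each class in both comparisons with WT, and above them in E12 against VF. At 2000 bases and over, a class with no upper limit, the medians are -2.52 and 0.8 in VF against WT.

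The large subunit catalyses peptide bond formation and holds the exit tunnel for the new protein. Of its 51 members 49 were lower in VF and 45 in E12 than in WT, with Mrps30 higher in both. The medians were -2.68 and -2.24 on the log2 scale. The 29 large-subunit proteins with bacterial relatives had 28 and 25 lower calls. The 22 proteins found in mitochondrial ribosomes alone had 21 and 20. Of all tested genes of 800 to under 1200 bases, the class of the subunit's median length, 54.1% and 57.5% were called lower. Lower calls were thus more frequent than in that class in both the ancient and the later parts.

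Mrpl37 (Entrez gene 56280, chromosome 4, 107055874 to 107066866), one of the proteins added in mitochondria, had the smallest p among the lower members in VF. It was at 135, 136 and 137 CPM in VF 1, VF 2 and VF 3, at 302, 207 and 227 CPM in E12 1, E12 2 and E12 5, and at 1255, 859 and 685 CPM in WT 50, WT 51 and WT 52. The 3 groups did not overlap. Its level was 6.85-fold lower in VF than in WT (log2 fold change -2.78 ± 0.31 SE, with an adjusted p = 0.00039 by edgeR) and 3.8-fold lower in E12 (-1.93, SE 0.3, adjusted p = 0.0025).

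Mrpl45 sits at the tunnel exit and anchors the ribosome to the inner membrane. Its level was 97.8, 92.7 and 95.4 CPM in VF, 178, 146 and 123 CPM in E12 and 459, 431 and 365 CPM in WT 50, WT 51 and WT 52. Here WT 50 was close to the other WT libraries and the groups did not overlap. The log2 fold changes were -2.13 (SE 0.24, edgeR adjusted p = 0.00039) in VF and -1.49 (SE 0.24, adjusted p = 0.0026) in E12.

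All 8 members at the tunnel exit were lower than in WT in both comparisons. Of all tested genes of 800 to under 1200 bases, the class of their median length, 54.1% were lower in VF and 57.5% in E12. Mrpl47 was at 21.4 ± 1.2 CPM in VF, 48.8 ± 1.12 in E12 and 174 ± 128 in WT. Mrpl17, at 6712 bases the longest member, was at 138 ± 17.6, 150 ± 21.5 and 913 ± 801 CPM, with log2 fold changes against WT of -2.72 and -2.6. Mrpl23 was at 6.26 ± 1.29, 5.82 ± 0.78 and 34.3 ± 29.5 CPM and Mrpl24 at 96.5 ± 9.38, 76.4 ± 11 and 329 ± 222 CPM. Mrpl44 had the smallest change of the 8, at 75.8 ± 3.53, 61.7 ± 6.3 and 145 ± 71.3 CPM. Its call was marginal in VF (log2 fold change -0.94, adjusted p = 0.039 by edgeR). It was lost with any 1 of the VF or E12 libraries left out (adjusted p = 0.06 to 0.12), with upper-quartile factors (0.057), in the fit of VF and WT alone (0.096) and on the deposited levels (0.18). In E12 it was called at -1.24 (adjusted p = 0.016) and not without E12 2 (0.065) or E12 5 (0.053), nor in the fit of E12 and WT alone (0.06).

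In the central protuberance, the crown of the large subunit that faces the small one, 6 of 6 members were lower in VF and 5 of 6 in E12. The shares of all tested genes of 800 to under 1200 bases, the class of their median length, were 54.1% and 57.5%. The member that did not pass in E12 was Mrpl38, at 50.9 ± 1.63 CPM in VF, 87.7 ± 9.92 in E12 and 136 ± 33.2 in WT, whose log2 fold change in E12 was -0.63 (adjusted p = 0.052 by edgeR). It passed with DESeq2's size factors (0.03), no filter (0.04), a mean of at least 5 CPM (0.048) and DESeq2 (0.0074), and without WT 50 (0.015), WT 51 (0.034) or WT 52 (0.0047). Mrpl48, of the same structure, was at 49.3, 59.8 and 48.6 CPM in VF, 43.1, 39.3 and 45.1 CPM in E12 and 652, 222 and 177 CPM in WT. Both mutant groups lay far below every WT library, and E12 lay below VF.

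The stalk, formed by Mrpl10, Mrpl11 and Mrpl12, recruits elongation factors to the ribosome, and 2 of its 3 members passed in both comparisons. Of all tested genes of 1200 to under 2000 bases, the class of their median length, 39.4% were lower in VF and 36.4% in E12. Mrpl12, which also binds the mitochondrial RNA polymerase, was at 137, 141 and 136 CPM in VF, 292, 225 and 249 CPM in E12 and 2051, 630 and 508 CPM in WT 50, WT 51 and WT 52. Its log2 fold changes against WT were -2.95 (SE 0.52, edgeR adjusted p = 0.0023) in VF and -2.06 (SE 0.5, adjusted p = 0.011) in E12, the second not called without E12 2 (adjusted p = 0.051). Mrpl11 fell by 3.02 and 2.67 on the log2 scale. Mrpl10, the base of the stalk, was at 72.5, 64.7 and 72.8 CPM in VF, 97.3, 80.9 and 88.9 CPM in E12 and 56.2, 131 and 122 CPM in WT. WT 50 was the lowest library of all 9 for this gene and the highest for the other stalk genes, so the groups overlapped and Mrpl10 did not pass in either comparison (-0.56, adjusted p = 0.16, and -0.21, adjusted p = 0.61). Without WT 50 it passed in both (-0.99, edgeR adjusted p = 5e-04, and -0.64, adjusted p = 0.0061), and in VF also with DESeq2 (0.035) and with the length offset (0.038). Whether the stalk members differ from each other in their response was not tested.

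Of the other large-subunit proteins, Mrpl42 had the highest level per kilobase of length, 2082 CPM per kilobase in WT, 291 in E12 and 204 in VF. Mrpl28 followed with 1721, 255 and 204 and Mrpl33 with 1270, 142 and 206 CPM per kilobase. At the low end, on the same scale, stood Mrpl23 with 59, 10 and 10.8. Mrpl49 was at 88.9 ± 8 CPM in VF, 119 ± 12 in E12 and 365 ± 83 in WT, and had the smallest p of all members in E12 against WT (log2 fold change -1.62, adjusted p = 0.0023 by edgeR). Mrpl14 was at 64.9 ± 5.79, 46.7 ± 6.5 and 265 ± 234 CPM, and its lower call in VF (-2.03, adjusted p = 0.013) was lost without VF 3 (0.051). Mrpl52, among the shortest members at 412 bases, was at 29.9 ± 5.1, 62.3 ± 7.89 and 272 ± 237 CPM, and its lower call in E12 (-2.12, adjusted p = 0.013) was lost without E12 2 (0.055).

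The small subunit binds the messenger RNA and reads its codons. Of its 26 members 24 were lower in VF and 24 in E12 than in WT, with medians of -2.35 and -1.85 on the log2 scale, and 0 were higher by edgeR, DESeq2 or limma-voom, or at an unadjusted p of 0.05. The 16 with bacterial relatives had 15 and 15 lower calls and the 10 found in mitochondria alone 9 and 9. Of all tested genes of 800 to under 1200 bases, the class of the subunit's median length, 54.1% and 57.5% were called lower. Mrps2 and Mrps27 did not pass in either comparison. Both had their lowest WT value in WT 50, at 45.1 CPM for Mrps2 and 57.2 CPM for Mrps27, against 137 and 149 CPM and 227 and 244 CPM in WT 51 and WT 52. In VF Mrps2 was at 62.8 to 66.6 CPM and Mrps27 at 78.9 to 89 CPM. Without WT 50 both passed in both comparisons. Mrps2 was then lower by 1.26 (edgeR adjusted p = 6.4e-05) in VF and 0.6 (0.0039) in E12 on the log2 scale, and Mrps27 by 1.6 (4e-05) and 1.21 (0.00025).

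Mrps12, the protein of the decoding centre, was at 105, 96.8 and 86.9 CPM in VF, 106, 80.9 and 89.5 CPM in E12 and 962, 228 and 210.4 CPM in WT 50, WT 51 and WT 52. VF and E12 overlapped and both lay below every WT library (log2 fold changes -2.28, adjusted p = 0.0094, and -2.34, adjusted p = 0.011, by edgeR). Mrps11 was at 56.7 ± 3.2, 69.2 ± 10.4 and 480 ± 393 CPM, with -3.08 (adjusted p = 0.0019) and -2.79 (adjusted p = 0.0044). Mrps21, at 407 bases the shortest member, was at 36 ± 1.57, 40.7 ± 4.37 and 223 ± 233 CPM, with -2.63 and -2.45. Its call in E12 (adjusted p = 0.014) was lost without E12 2 (0.057) or E12 5 (0.053).

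Mrps25 and Mrps31 had the lowest levels per kilobase beside Mrpl23, 17.9 and 14 CPM per kilobase in VF, 16.6 and 19.8 in E12 and 40.8 and 33 in WT. Mrps31 was at 20.5, 22.3 and 21.6 CPM in VF, 31.5, 30.1 and 29.4 CPM in E12 and 47, 55.8 and 49.1 CPM in WT. It is among the few members for which WT 50 did not stand out, and its groups did not overlap. It was lower than in WT by 1.24 on the log2 scale in VF (adjusted p = 0.0017 by edgeR) and by 0.74 in E12 (adjusted p = 0.018), the second call being lost with any 1 E12 library left out (0.053 to 0.065) and in the fit of E12 and WT alone (0.083). Mrps25 shares exon bases with Nr2c2 on the other strand, which the unstranded counts cannot separate. It was lower by 1.19 in VF (adjusted p = 0.03) and by 1.3 in E12 (0.025). In VF that call was lost with any 1 VF library left out (0.08 to 0.092), in the fit of VF and WT alone (0.082) and on the deposited levels (0.39), and in E12 with any 1 E12 library left out (0.07 to 0.08) and in the fit of E12 and WT alone (0.079).

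Mrps18a, Mrps18b and Mrps18c are related genes whose proteins take different places, Mrps18a in the large subunit and the other two in the small. In VF they were at 74 ± 1.92, 74.1 ± 7.12 and 70.5 ± 6.13 CPM. In E12 they were at 96.9 ± 13.3, 145 ± 20.2 and 73.1 ± 11.9 CPM and in WT at 534 ± 422, 618 ± 510 and 651 ± 677 CPM. All 3 were lower than in WT in both comparisons, with log2 fold changes of -2.85, -3.06 and -3.21 in VF and -2.46, -2.09 and -3.16 in E12, Mrps18b in E12 not being called without E12 2 (adjusted p = 0.051 by edgeR).

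Mrps36 carries the name of the family, but its protein is now known as a part of the 2-oxoglutarate dehydrogenase complex. It was at 15.7, 15.1 and 13.6 CPM in VF, 24.2, 17.1 and 24.2 CPM in E12 and 112, 24.2 and 17.6 CPM in WT 50, WT 51 and WT 52. E12 covered the range of WT 51 and WT 52, and WT 50 alone stood high. The lower call in VF (log2 fold change -1.79, adjusted p = 0.04 by edgeR) was lost without WT 50 (-0.64, adjusted p = 0.062), with any 1 VF or E12 library left out (0.058 to 0.11), with limma-voom (0.13), in the fit of VF and WT alone (0.094) and with the length offset (0.15). In E12 it did not pass (-1.23, adjusted p = 0.14), except without WT 52 (-1.96, 0.018).

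Mrps30 (Entrez gene 59054, chromosome 13, 118380110 to 118387252), a large-subunit protein despite its name, was the member that was higher in the mutants. It was at 98.5, 93.6 and 85.2 CPM in VF 1, VF 2 and VF 3, at 156, 109 and 121 CPM in E12 1, E12 2 and E12 5, and at 16.1, 3.36 and 26.9 CPM in WT 50, WT 51 and WT 52. All 6 mutant libraries lay above all WT libraries, and WT 51 held 108 reads of it. The level was 5.99-fold higher in VF (log2 fold change 2.58 ± 0.6 SE, edgeR adjusted p = 0.0074) and 8.32-fold higher in E12 (3.06, SE 0.61, adjusted p = 0.0058). Across the alternatives, the length offset and each library left out included, the log2 fold change ran from 1.95 to 3.12 in VF and from 2.42 to 3.59 in E12, with adjusted p up to 0.03 and 0.031. Mrps30 shares 623 exon bases with B430218F22Rik on the opposite strand, and Smart-Seq2 libraries do not keep the strand. Reads of the 2 genes cannot be told apart in the shared bases, and the part of B430218F22Rik in the result was not tested.

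**Figure D3:**
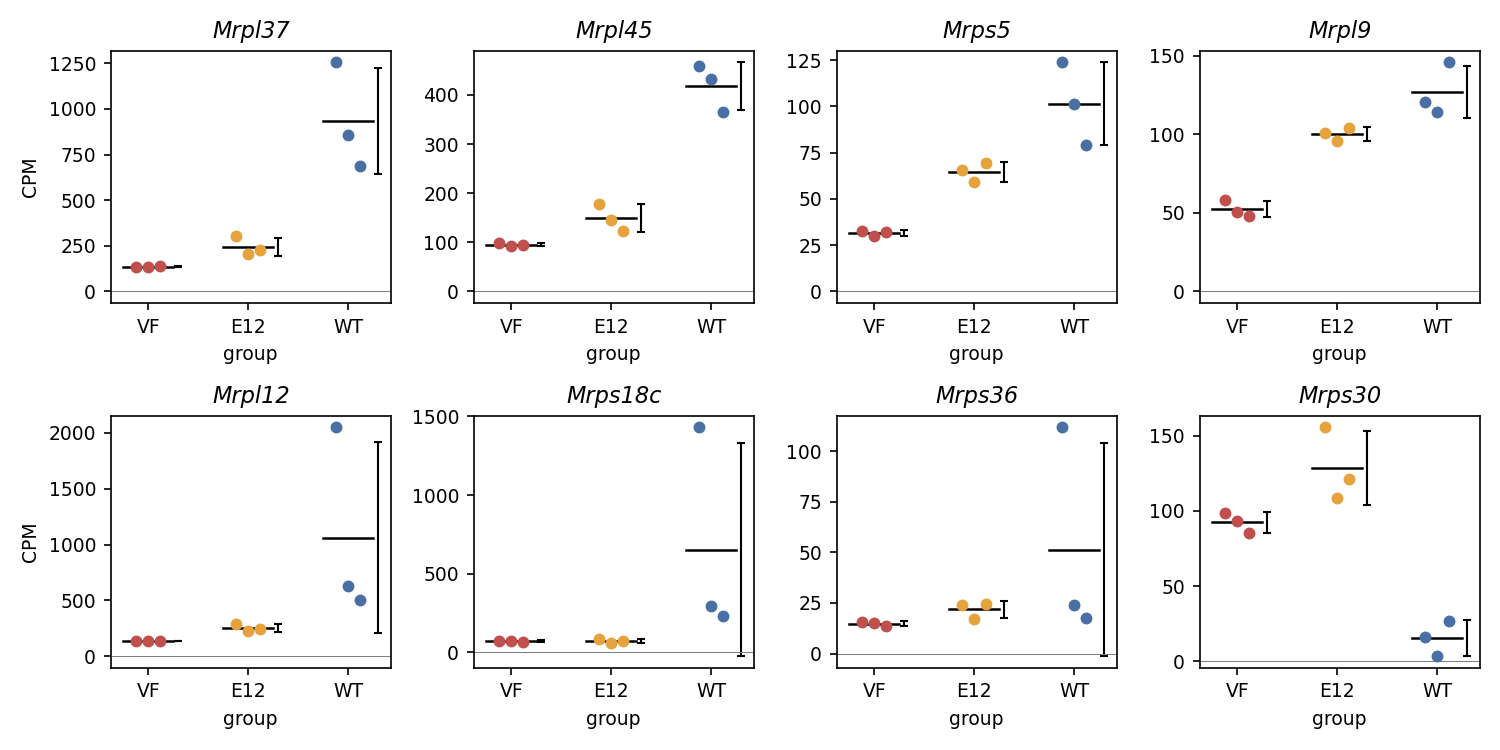
Normalised read count (CPM, linear axis) of 8 members in VF, E12 and WT; points are libraries (in WT from left to right WT 50, WT 51 and WT 52), the line is the mean and the bar beside it the SD (n = 3). Mrpl37, Mrpl45 and Mrpl12 show 3 separate groups, Mrps18c and Mrps36 a single high WT 50 point (1432 and 112 CPM), and Mrps30 its lowest values in WT (3.36 to 26.9 CPM).

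E12 against VF compares the mutant groups with each other, and these also differ in weeks after tamoxifen. In the fit of all 9 libraries the WT libraries still enter the shared estimate of spread. The members' levels were higher in E12 for 65 of 78, against 47.3% of all tested genes, and all 3 E12 libraries lay above all 3 VF libraries for 53 members, against 28.2% of all genes. The reverse held for 6 members, fewer than the 24.8% to 31.9% of other genes by length class. These 6 were Mrpl14, Mrpl24, Mrpl33, Mrpl44, Mrpl48 and Mrps25. The median log2 fold change was 0.4, against -0.05 over all genes. It was 0.31, 0.44, 0.45 and 0.51 from the shortest to the longest length class, where the other genes had 0.03, -0.1, -0.04 and -0.05.

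The number of single members that passed differed between the fits. In the fit of all 9 libraries 2 members were higher in E12 by edgeR's quasi-likelihood test, Mrps5 and Mrpl9, and 0 were lower, which was also the number without adjustment at 0.05, with DESeq2 and with limma-voom. Over all tested genes 2.18% were called higher and 1.01% lower. Without any 1 of the VF or E12 libraries 0 members were higher. In the fit of VF and E12 alone 55 members were higher and 2 lower, against 25.4% and 22.6% of the 13350 genes tested there. Without E12 5 as well, a fit chosen after seeing the data, 47 were higher and 2 lower, against 3378 and 3439 of 13620 genes. In the 9-library fit without WT 50 it was 26 higher and 1 lower, against 1789 and 1497 of 13978 genes.

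Mrps5, a small-subunit protein near the entry of the messenger RNA (Entrez gene 77721, chromosome 2, 127587426 to 127603986), was at 32.8, 30 and 32.2 CPM in VF, 65.6, 58.9 and 69.1 CPM in E12 and 124, 101 and 79.2 CPM in WT. The groups did not overlap, with E12 between VF and WT. It was 2.04-fold higher in E12 than in VF (log2 fold change 1.03 ± 0.22 SE, edgeR adjusted p = 0.044) with an adjusted p of 0.00015 in the fit of the 2 groups. In the 9-library fit the call was lost with any 1 VF or E12 library left out (adjusted p = 0.11 to 0.22), without WT 51 (0.066), with DESeq2's size factors (0.088), upper-quartile factors (0.082) or no filter (0.094). Against WT it was lower by 1.68 on the log2 scale in VF (adjusted p = 0.00077) and by 0.65 in E12 (0.041), the latter lost with any 1 VF or E12 library left out (0.076 to 0.14), in the fit of E12 and WT alone (0.14), on the deposited levels (0.054) and with the length offset (0.061).

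Mrpl9 of the large subunit (Entrez gene 78523, chromosome 3, 94443154 to 94448708) was at 58.5, 50.5 and 48.4 CPM in VF, 101, 95.9 and 104 CPM in E12 and 120.4, 114 and 146 CPM in WT. E12 lay nearer to WT than to VF. It was 1.91-fold higher in E12 than in VF (log2 fold change 0.93 ± 0.2 SE, edgeR adjusted p = 0.044, and 0.00018 in the fit of the 2 groups). The 9-library call was lost with any 1 VF or E12 library left out (0.13 to 0.25) and with no filter (0.063). Mrpl9 was lower in VF than in WT (-1.28, adjusted p = 0.0015) and did not pass in E12 (-0.34, adjusted p = 0.2). In E12 it passed with DESeq2's size factors (-0.54, adjusted p = 0.048), with DESeq2 (-0.54, 0.0014) and without WT 50 (-0.49, 0.016), WT 51 (-0.58, 0.04) or WT 52 (-0.51, 0.039).

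In the fit of VF and E12 alone the higher calls were spread over both subunits. They were 22 of the 29 conserved and 15 of the 22 mitochondria-specific large-subunit members, and 10 of the 16 conserved and 7 of the 10 mitochondria-specific small-subunit members. By length class 12 of 22, 20 of 24, 15 of 20 and 8 of 12 members were higher, where 13.7%, 21.9%, 27.2% and 25.7% of the other genes were. The largest increases were those of Mrpl47 (log2 fold change 1.22 ± 0.11 SE, edgeR adjusted p = 9.1e-05), Mrpl52 (1.09, SE 0.15), Mrps5 (1.06, SE 0.11), Mrps22 (1.04, SE 0.09) and Mrps18b (1, SE 0.11). Mrps22 was chosen after its values were seen, 43.6 to 48.1 CPM in VF and 88.6 to 97.1 CPM in E12.

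The 2 lower members in that fit were Mrpl33 and Mrpl14. Mrpl33, with a coding sequence of 195 bases the smallest of the family, was at 103, 99.4 and 85.1 CPM in VF and 69.3, 63.7 and 65.3 CPM in E12 (-0.5, SE 0.1, adjusted p = 0.003 by edgeR). Mrpl14, at the face of the large subunit, was at 66.3, 69.9 and 58.5 CPM in VF and 52.2, 39.5 and 48.2 CPM in E12 (-0.44, SE 0.12, adjusted p = 0.017). The groups did not overlap for either gene, and neither passed in the 9-library fit (adjusted p = 0.7 for both).

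**Figure D4:**
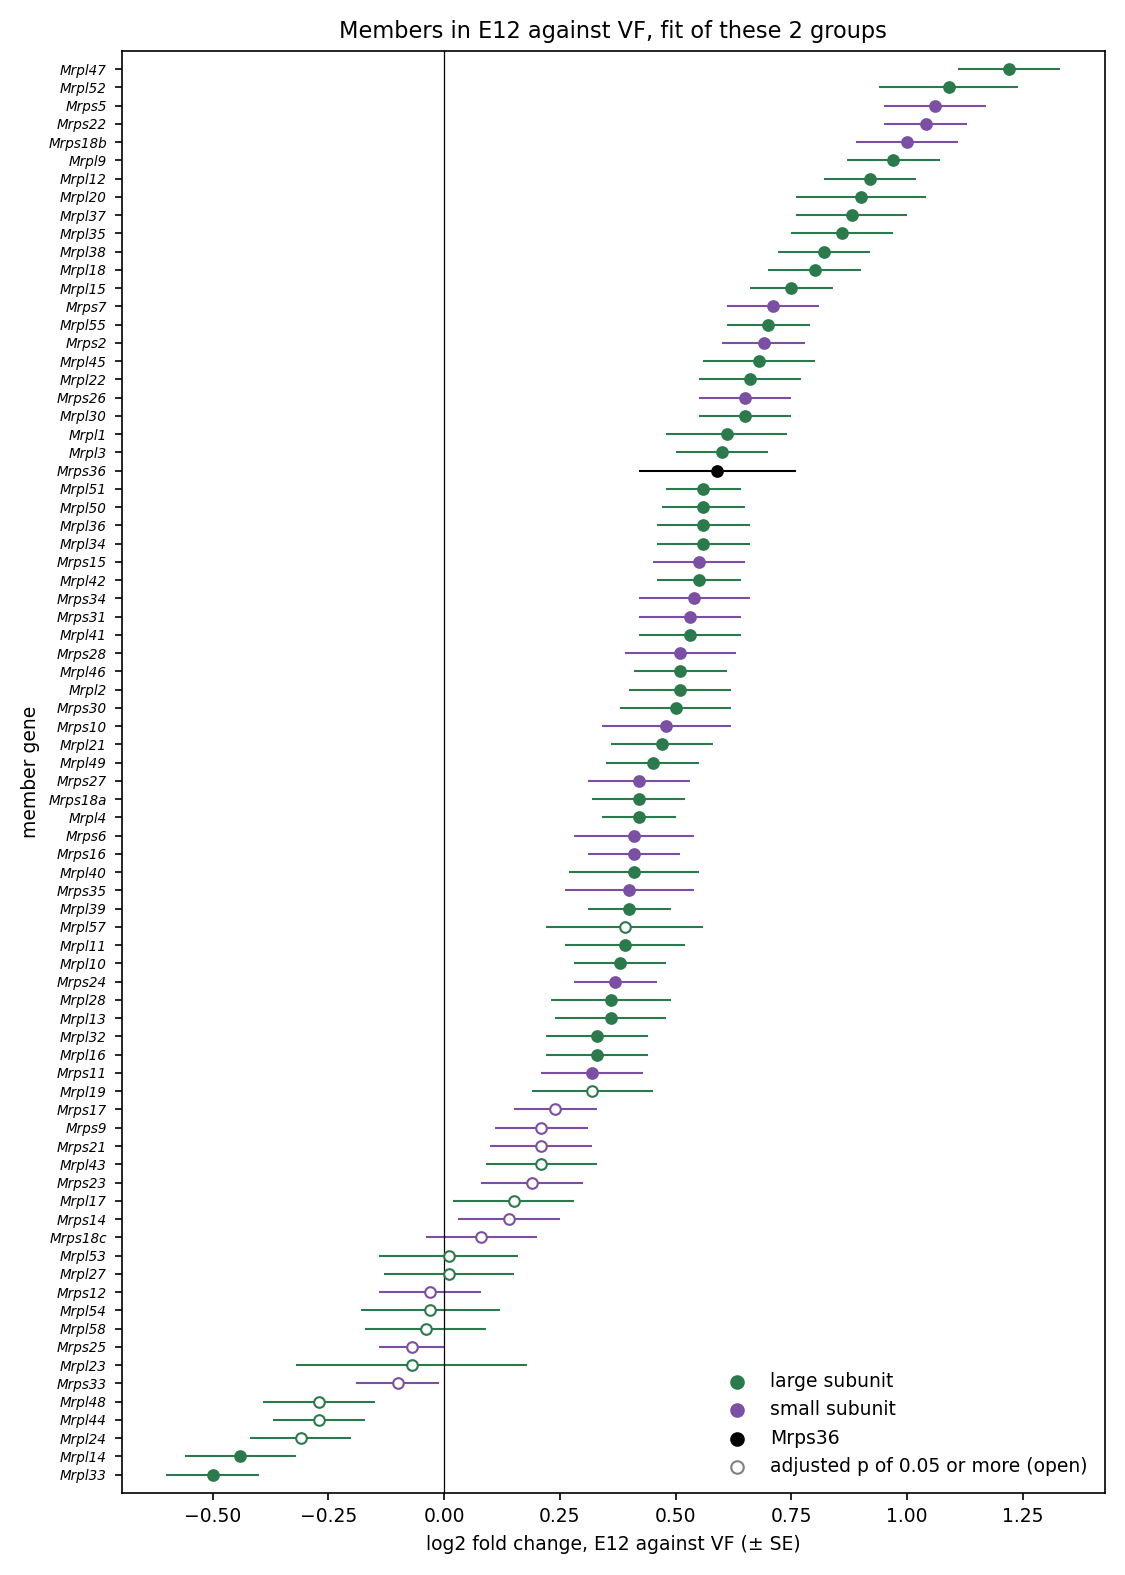
Log2 fold change of each of the 78 members in E12 against VF from the fit of these 2 groups; the bar is the SE, filled points passed an adjusted p of 0.05 and colours give the subunit. Values run from -0.5 for Mrpl33 to 1.22 for Mrpl47, and 55 filled points lie above 0 and 2 below.

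The balance between the subunits moved little beside the levels themselves. The summed level per kilobase of the large-subunit members was 2.04 to 2.08 times that of the small-subunit members in VF, 2.09 to 2.19 times in E12 and 2.21 to 2.31 times in WT, so the ranges did not overlap. Over the same libraries the large-subunit sum itself ran from 3337 to 3699 CPM per kilobase in VF, 4201 to 5295 in E12 and 10748 to 45373 in WT. The highest members weigh most in these sums. The median large-subunit member was at 51.6 to 56.5 CPM per kilobase in VF, 63.4 to 76.8 in E12 and 165 to 584 in WT. For the median small-subunit member the ranges were 60.9 to 69.5, 72.9 to 87.3 and 200 to 728. The ratio of these medians overlapped between the groups, so the ordered ratio was seen for the sums only.

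Some members have near copies or neighbours that the counting could mix with them. By alignment to GENCODE M21 transcripts 20 members have a pseudogene copy with at least 95% identity over at least 150 bases, and 33 share exon bases with another gene, 28 of them with one on the opposite strand. Of the 32 members with neither, 31 were lower in VF and 29 in E12 than in WT, with medians of -2.62 and -2.13, and 30 had a higher level in E12 than in VF. As shares, these counts are close to those over all members. Over all tested genes 20.9% were called lower in VF and 18.1% in E12, and 47.3% had a higher level in E12 than in VF.

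Of the 5 mitochondrial ribosomal proteins measured under other names, 4 were lower than in WT in both comparisons. Of all tested genes of 1200 to under 2000 bases, the class of their median length, 39.4% were lower in VF and 36.4% in E12. Dap3, a small-subunit GTP-binding protein, was at 81.9, 95.3 and 86.8 CPM in VF, 214, 159 and 180 CPM in E12 and 866, 531 and 430.4 CPM in WT, with log2 fold changes of -2.79 (adjusted p = 0.00041 by edgeR) and -1.72 (0.004). Gadd45gip1 of the large subunit had -3.05 (0.0037) and -2.73 (0.0075). Ptcd3 was at 85 ± 4.27 CPM in VF, 181 ± 12.1 in E12 and 121 ± 132 in WT, and did not pass in any comparison of the 9-library fit. Without WT 52 it was higher in E12 than in WT (1.73, edgeR adjusted p = 0.0014) and than in VF (1.09, 0.025), and in the fit of VF and E12 alone it was also higher in E12 (1.12, 3.8e-05).

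The mitochondrial translation factors, which load, elongate and release on this ribosome, were mixed. Of 13 genes 7 were lower and 2 higher in VF than in WT, and 7 lower and 2 higher in E12. Over all tested genes 20.9% were lower and 27.7% higher in VF, and 18.1% and 23.9% in E12. Among genes of 2000 bases and over, the class of the list's median length, 9.87% were lower in VF and 6.35% in E12. Tsfm and Tufm, which form the elongation factor pair that delivers transfer RNA, were lower in VF by 2.53 (adjusted p = 0.00098 by edgeR) and 1.21 (0.0018) on the log2 scale. Tufm was at 77.2, 71.8 and 75 CPM in VF, 161, 149 and 145 CPM in E12 and 157, 195 and 165 CPM in WT, so E12 overlapped WT. It was higher in E12 than in VF (1.02, adjusted p = 0.033), a call lost with no filter (0.06) and with any 1 VF or E12 library left out (0.11 to 0.2). Guf1, a back-translocating elongation factor, was higher than in WT in VF (2.36, adjusted p = 0.00043, but 0.5 and 0.11 with the length offset) and in E12 (3.04, adjusted p = 0.00053). Mtrf1l, a release factor, was higher by 1.32 and 1.29 (adjusted p = 0.012 and 0.015), values of -0.04 and 0.07 with the length offset (0.95 and 0.91). Without WT 51 or WT 52 the Mtrf1l calls were lost, at adjusted p = 0.08 and 0.054 in VF and 0.095 and 0.064 in E12. Its call was also lost on the deposited levels in VF (0.35) and E12 (0.21), and in E12 with DESeq2's size factors (0.058), no filter (0.061) or E12 and WT alone (0.071).

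Factors that assemble the mitochondrial ribosome were lower for 12 of 22 in VF and for 8 of 22 in E12, where 2 were higher. Of all genes of at least 1200 and under 2000 bases, the class of the list's median length, 39.4% and 36.4% were called lower, so the E12 count is at that background. Over all tested genes 23.9% were higher in E12. Mrm3, a methyltransferase of the large ribosomal RNA, was at 52.2 ± 7, 78.2 ± 11.4 and 373 ± 206 CPM in VF, E12 and WT (log2 fold changes -2.84, adjusted p = 0.00082, and -2.25, adjusted p = 0.0033, by edgeR). Mpv17l2 had -2.45 (0.00099) and -1.43 (0.011), and the GTPase Mtg2 -1.71 (0.0011) and -1.75 (0.0019). Noa1, a GTPase needed for mitochondrial translation, was at 43, 42.2 and 46.4 CPM in VF, 110, 90.2 and 103 CPM in E12 and 46.9, 48.2 and 48.7 CPM in WT. E12 thus lay above both other groups (1.08 against WT, adjusted p = 0.0038, but 0.25 and 0.41 with the length offset; 1.2 against VF, adjusted p = 0.016, and 0.076 to 0.13 without E12 1, E12 5 or any 1 VF library). Dhx30 was higher in E12 than in WT (1.39, adjusted p = 0.022). With the length offset it was at -0.09 (0.83), and without E12 1 or E12 2 the adjusted p was 0.061 and 0.064, and in the fit of E12 and WT alone 0.066.

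Of the 12 genes listed for the supply of mitochondrial transcripts 3 were lower in VF, and 3 were lower and 1 higher in E12. Of all tested genes 20.9% were called lower in VF and 18.1% in E12, and 23.9% were higher in E12. Among those of 2000 bases and over, the class of the list's median length, 9.87% and 6.35% were lower. Tefm and Slirp, 2 of the lower genes, are shorter, at 1287 and 419 bases. The elongation factor Tefm was lower by 2.15 (adjusted p = 0.002 by edgeR) and 2.21 (0.003) on the log2 scale. Tfam, which packages mitochondrial DNA, was at 58 ± 6.54 CPM in VF, 84.3 ± 8.88 in E12 and 129 ± 11.4 in WT. It was lower by 1.16 (edgeR adjusted p = 0.0023) in VF and by 0.62 (0.036) in E12, the second not followed through the alternatives. Slirp, an RNA-binding partner of Lrpprc, was lower by 2.85 (0.006) and 2.39 (0.014), the second call lost without E12 2 (0.055) or E12 5 (0.052). The polymerase Polrmt was at 43.1 ± 4.65, 71.7 ± 7.9 and 29 ± 4.37 CPM and was higher in E12 than in WT (1.3, adjusted p = 0.0032), a direction that turned with the length offset (-0.22, adjusted p = 0.49).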

How the data were processed

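The authors deposited whole-number gene counts, per the file headers keyed by Entrez identifier and symbol with each gene's length, and expression levels on a log2 scale whose normalization is not stated. Per the labels' protocols RNA was extracted with PicoPure and libraries were made with SmartSeq 2. STAR, limma, GRCm38 and mm10 are named in the submitters' processing notes. For the counter and annotation, none is given in the sources used.

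The deposited counts entered edgeR 4.0.16 (R 4.3.3; filterByExpr, TMM, glmQLFit and glmQLFTest on all 9 libraries, group as the only term, two-sided, Benjamini-Hochberg over 13602 genes, called under 0.05), a procedure also tested on simulated data. The 8 rows without a symbol, with 0.0071% of the counts, were left out. An exact permutation test of 3 libraries against 3 cannot go below 0.1. Alternatives used DESeq2 1.42.0, limma 3.58.1 (voom, and on the deposited log2 levels), RLE and upper-quartile factors, other filters, fits of 2 groups, a spline offset for gene length (5 df), a replicate block, length classes by GENCODE M21 transcripts and left-out libraries. Copies and shared exons come from GENCODE M21, promoters and positions from RefSeq (GRCm38.p6), where 78 members matched.

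The members and lists were chosen with earlier results of these data known. Named members are, per comparison, the 5 with the smallest p in each direction, those called in the rarer direction, the 3 highest and lowest per kilobase, the 2 shortest and longest, and fixed genes (the stalk, Mrps18a to Mrps18c, Mrps12, Mrps30, Mrps36 and Mrpl45). Other lists give up to 2 genes per direction and comparison. Not all are given with values.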

Additional observations from a re-analysis of the deposited data

How the results depend on the processing

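Mrps30 was higher and 67 to 77 members were lower in VF than in WT under every alternative run, and 45 to 74 were lower in E12. The lower calls over all genes moved as well. In VF they ran from 1961 of 13886 without VF 3 to 5790 of 13602 with the length offset. In E12 they ran from 1323 of 13957 without E12 2 to 4528 of 13602 with the length offset. The sizes moved more. The members' median in VF and E12 against WT was -1.44 and -1.15 on the deposited levels, -1.82 and -1.12 with the length offset, and -1.8 and -1.29 without WT 50 and E12 5. With 1 library left out it ran from -3.27 to -1.84 in VF and from -2.8 to -1.39 in E12, with 45 to 74 lower members in E12. Relative to genes of similar length the members' median in VF and E12 was -2.17 and -1.63 with no filter. It was -0.9 and -0.41 with a mean of at least 5 CPM, and -0.53 and -0.13 on the deposited levels.

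In E12 against VF the number of higher members was 1 with RLE or upper-quartile factors, 0 with no filter, 4 with DESeq2, 15 on the deposited levels, 21 with the length offset (median 0.61), 22 without WT 50 and E12 5, 0 to 26 with 1 library left out, and 55 in the fit of the 2 groups, where 2 were lower (47 and 2 without E12 5). The higher calls over all genes moved too. They were 859 of 13602 with DESeq2, 972 of 13602 on the deposited levels and 1165 of 13602 with the length offset. Without WT 50 and E12 5 they were 1568 of 13868, and in the fit of the 2 groups 3388 of 13350. With 1 library left out they ran from 18 of 13886 without VF 3 to 1789 of 13978 without WT 50. Lower members numbered 0 to 1 with 1 library left out. The replicate numbers 1 and 2 are shared by VF and E12 only as labels, and deviations of like-numbered libraries correlated across genes at 0.00971 and 0.103. With a replicate block 49 members were higher and 2 lower, against 3202 and 3005 of 13350 genes. The cause of these moves was not tested.

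Directions that turned were those of small or length-bound values. With the length offset, VF against WT gave -0.04 for Mtrf1l, -0.73 for Dhx30, -0.19 for Gtpbp10, -1.15 for Polrmt and -0.92 for Pnpt1. E12 against WT gave 0.36 for Mrps36, -0.24 for Ptcd3, -0.09 for Dhx30, -0.22 for Polrmt and -0.7 for Lrpprc, and E12 against VF 0.13 for Mrpl23, 0.2 for Mrps25 and 0.17 for Mrps12. On the deposited levels E12 against VF gave 0.33 for Mrpl23, -0.08 for Mrpl17 and Mrps18c and 0.03 for Mterf2. Upper-quartile factors gave -0.04 for Mrps18c. Without WT 50 and E12 5 Pnpt1 was at -0.36 in VF against WT and Mrpl23 at 0.01 in E12 against VF. With 1 library left out, Pnpt1 ran from -0.38 to 0.98 in VF against WT, and in E12 against VF Mrps18c from -0.07 to 0.17, Mrps12 from -0.17 to 0.02 and Mrpl23 from -0.26 to 0.02.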
